A study of Mus musculus with 10 samples.

Results

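The 43 genes described here encode proteins that carry a cell through G2 phase and mitosis. They were taken by name from a list of mitotic kinases and cyclins, kinetochore and checkpoint proteins, kinesins, spindle and cytokinesis proteins, and the transcription factors Foxm1 and Mybl2. No rule on their values was used, but earlier results of these data were known when the genes were chosen. Each symbol was matched to 1 Ensembl identifier of the deposited table. They are 43 of the 55573 genes listed there, and all 43 were among the 11978 genes with at least 1 CPM (reads per 1000000 reads on genes) in at least 2 libraries.

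RNA was sequenced from bone marrow-derived macrophages (BMDMs), which are cells grown out of mouse marrow with M-CSF, here at 50 ng/mL in medium with 10% serum. The marrow came from female C57BL/6 mice of wild-type genotype, their age is not given in the sources used here, and these facts hold for all 5 groups of 2 libraries each. For 4 hours the cells received vehicle, or 5 µg polyU, a single-stranded uridine RNA complexed with the lipid carrier DOTAP, or PNPi+dG/rG, which is 1 µM ulodesine, an inhibitor of purine nucleoside phosphorylase, with 5 µM deoxyguanosine and 5 µM guanosine, or polyU and PNPi+dG/rG together, written PNPi+dG/rG+polyU and also called the combination, or R848 at 1 ng/mL, an imidazoquinoline agonist of TLR7. The labels call the 2 libraries of a group biological replicates and do not say whether they came from separate animals, so p-values measure only the spread between these libraries. The comparisons ask what the TLR7 ligands did to mitotic transcripts alone and together, and how the combination compared with R848.

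Most mitosis genes share 1 transcriptional program. In quiescent cells and early in the cycle they are held off by DREAM, a repressor complex of MuvB proteins with pocket proteins and E2F4, and in late S and G2 phase the MuvB core binds first B-Myb, the product of Mybl2, and then FOXM1, which switch the same genes on. The complex reaches DNA at the cell cycle genes homology region (CHR), often near CCAAT boxes, which bind NF-Y. Macrophages grown in M-CSF divide in culture, and M-CSF signals through the receptor Csf1r to D-type cyclins and Myc.

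Promoter windows from 250 bases before to 50 bases after the transcript start were taken from RefSeq (GRCm38.p6), which held 35 of the 43 genes. Aurkb, Ccna2, Cdc25c, Foxm1, Kif20a, Pbk, Pimreg and Tpx2 were not matched. The CHR was searched as TTTGAA or TTCGAA and the CCAAT box as CCAAT, each on both strands. A CHR and a CCAAT match share 1 base in the window of Cdca8. The last 100 bases before the start are shown for 5 genes, chosen because Cdk1, Top2a and Cdc20 carry both motifs there while Mki67 and Mad2l1 had the smallest falls with R848. Capitals mark CHR and CCAAT letters in either orientation, and each line reads 5′ to 3′ on the strand of its gene.
Cdk1, chr10:69352913-69353012, minus strand: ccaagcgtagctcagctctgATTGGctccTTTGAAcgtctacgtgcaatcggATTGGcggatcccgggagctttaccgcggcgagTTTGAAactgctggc
Top2a, chr11:99024190-99024289, minus strand: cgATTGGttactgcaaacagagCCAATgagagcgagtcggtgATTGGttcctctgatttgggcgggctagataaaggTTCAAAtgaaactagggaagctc
Cdc20, chr4:118437344-118437443, minus strand: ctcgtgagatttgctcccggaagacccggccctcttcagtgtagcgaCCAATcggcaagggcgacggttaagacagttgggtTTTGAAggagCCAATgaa
Mki67, chr7:135716380-135716479, minus strand: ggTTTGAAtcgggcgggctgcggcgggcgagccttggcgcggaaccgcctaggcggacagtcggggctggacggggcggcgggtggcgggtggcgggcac
Mad2l1, chr6:66535121-66535220, plus strand: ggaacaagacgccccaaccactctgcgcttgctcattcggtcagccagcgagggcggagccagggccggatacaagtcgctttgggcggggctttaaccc
A gene was counted when any of its windows held the letters. CHR letters were found for 28 of the 35 genes (80.0%), against 21.7% of all 27025 genes in the RefSeq table. CCAAT letters were found for 25 of the 35 genes (71.4%, against 41.1% of all genes) and both motifs in the same window for 23 (65.7%, against 8.61%). The 7 genes without CHR letters were Birc5, Ccnb1, Cenpe, Mad2l1, Mybl2, Nuf2 and Nusap1. For Mad2l1 the stretch printed ends at 66535220, while the gene annotation used for exon lengths starts the gene at 66535390. Its window therefore does not reach that start. In the 100 bases printed, Cdk1 held 2 CHR matches and Top2a 1, and Mki67 held 1 CHR match without CCAAT letters, although its full window held 3 CCAAT matches farther upstream. These are matches of letters, and no binding was measured here.

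In vehicle-treated BMDMs the 43 genes were expressed at mean levels from 6.51 CPM for Cdc25c to 701 CPM for Mki67, with a median of 54.5 CPM. Per kilobase of annotated exon, Mki67, which coats mitotic chromosomes, stood highest at 69.6 CPM per kb. Top2a, the topoisomerase that untangles sister chromatids, followed at 47.9 CPM per kb, ahead of Ccna2 (cyclin A2) at 31.7. The lowest per kilobase was Cdc25c, the phosphatase that activates Cdk1, at 1.32 CPM per kb, below Ccnb1 at 3.34 and Mybl2 at 3.98, and the median was 13.5. Together the 43 genes took 0.380% and 0.334% of all reads in the vehicle libraries. In bulk RNA, fewer dividing cells, less mitotic RNA per cell and a different mix of cells between groups cannot be told apart.

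The geometric mean CPM of the 43 genes fell into 3 levels across the 10 libraries. It was 59.97 and 52.6 in vehicle, 57.1 and 49.2 in polyU, and 55.4 and 62.4 in PNPi+dG/rG, so that the libraries of these 3 groups overlapped. It was 36.1 and 40.04 in PNPi+dG/rG+polyU, below each of those 6 libraries. With R848 it was 0.627 and 0.731 CPM, and the 43 genes took 0.0181% and 0.0174% of reads. In the plot of all genes by library, the R848 columns stand apart for every gene.

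**Figure D1:**
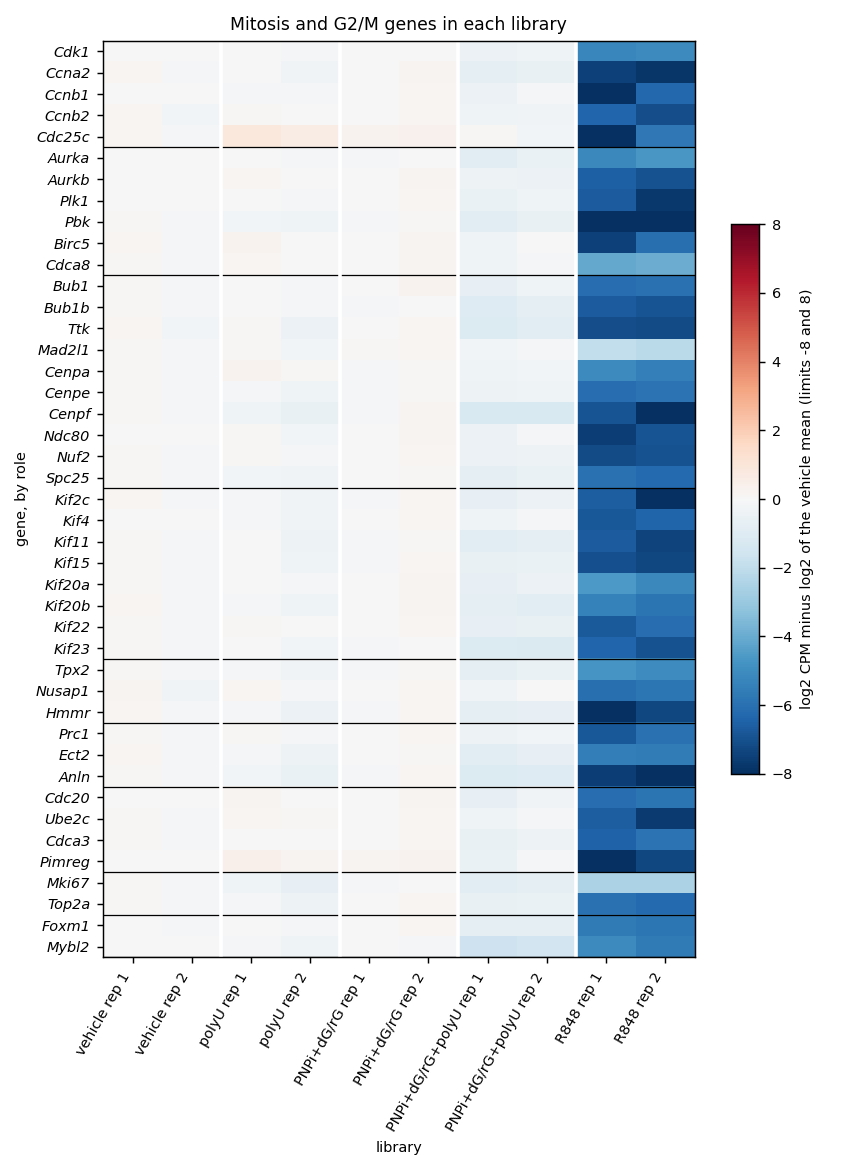
Log2 CPM of each of the 43 genes (rows, grouped by role) in each of the 10 libraries (columns), as the difference from log2 of the mean CPM of the 2 vehicle libraries, with a color scale that stops at -8 and 8. The 2 R848 columns are blue in all rows and palest for Mad2l1 and Mki67, the PNPi+dG/rG+polyU columns are faintly blue in most rows, and the other 6 columns lie near 0.

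In the 4 groups other than R848, most of the 43 genes deviated the same way between the 2 libraries of a group. In vehicle 41 of the 43 were higher in replicate 1, with a median log2 difference of 0.18, and in polyU all 43 were, with a median of 0.20. In PNPi+dG/rG 42 were higher in replicate 2, the exception being Mybl2, and in PNPi+dG/rG+polyU 38 were. The same medians over all tested genes lay between -0.011 and 0.013 in these 4 groups. A difference between groups of about 0.2 is thus of the size seen between 2 replicates of 1 of these groups. In R848, 24 genes were higher in replicate 1 and 19 in replicate 2, with a median of 0.057 and a median absolute difference of 0.45.

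R848 lowered every one of the 43 genes. Relative to vehicle, log2 differences ran from -10.85 for Cdc25c to -2.05 for Mad2l1 with a median of -6.60, and all 43 passed at an adjusted p under 0.05 in limma with Benjamini-Hochberg adjustment over all 11978 tested genes. R848 changed much of the transcriptome, and 62.9% of tested genes were called lower and 19.2% higher, with a median of -0.50 over all tested genes. Setting the median tested gene of every library to the same level (centring) moved that median to 0.095 and the calls over all tested genes from 7535 lower and 2300 higher to 4150 and 5146, and 43 of the 43 genes were still called lower. A stricter call, at least 8-fold lower, held for 41 of the 43 genes against 6.22% of tested genes. The 2 genes outside it were Mki67 and Mad2l1. In each of the 43 genes both R848 libraries lay below all 8 other libraries. With R848, 24 genes were under 1 CPM in both libraries and 32 were left at under 2% of their vehicle mean.

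Because so few reads remained, folds were also taken from pooled reads, with exact 95% binomial intervals that cover counting error only. The fold from vehicle to R848 ran from 4.22 for Mad2l1 to 397 for Pbk with a median of 83.8. In 6 genes an R848 library held 3 reads or fewer, and 3 reads correspond to 0.159 CPM in R848 replicate 1 and 0.0919 CPM in replicate 2.

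The master kinase of mitosis with its cyclins and phosphatase had a median log2 difference of -7.15 over 5 genes. Cdk1, the kinase that drives entry into mitosis, stood at 105 and 103 CPM in vehicle, 108 and 98.6 in polyU, 104 and 107 in PNPi+dG/rG, 74.8 and 83.6 in PNPi+dG/rG+polyU and 2.76 and 3.001 in R848. R848 left it at 2.77% of vehicle, a log2 difference of -5.17 ± 0.073 (SE, limma adjusted p = 7.90e-18), which was the smallest fall of the group. Ccnb1, cyclin B1, which activates Cdk1, was measured at 14.5 and 13.6 CPM in vehicle, 13.1 and 12.8 in polyU, 13.6 and 15.7 in PNPi+dG/rG, 9.98 and 12.6 in PNPi+dG/rG+polyU and 0.0532 and 0.184 in R848. Its R848 values are 1 and 6 reads, and pooled reads gave a 103-fold (95% interval 49.8 to 259) fall. Cdc25c was at 7.24 and 5.79 CPM in vehicle, 11.8 and 9.94 in polyU, 7.996 and 8.29 in PNPi+dG/rG, 6.87 and 5.63 in PNPi+dG/rG+polyU and 0 and 0.123 in R848, the last from 0 and 4 reads. Its log2 difference of -10.85 ± 3.18 (limma adjusted p = 0.0228) depends on the deposited offset that stands in for 0 reads and did not pass without vehicle replicate 1 (limma adjusted p = 0.0810) or replicate 2 (limma adjusted p = 0.0759), and pooled reads gave an 83.8-fold (95% interval 32.3 to 310.3) fall. Ccna2 and Ccnb2, the other cyclins, were left at 0.512% and 0.988% of vehicle.

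The 6 mitotic kinases and chromosomal passengers had a median of -6.76. Plk1, the polo-like kinase of centrosome maturation and spindle assembly, stood at 60.2 and 56.4 CPM in vehicle, 56.99 and 54.2 in polyU, 56.3 and 63.9 in PNPi+dG/rG, 39.8 and 45.8 in PNPi+dG/rG+polyU and 0.584 and 0.276 in R848. The vehicle, polyU and PNPi+dG/rG libraries of Plk1 overlapped, those of PNPi+dG/rG+polyU lay below them, and R848 left 11 and 9 reads, a log2 difference of -7.18 ± 0.33 (limma adjusted p = 2.58e-06). Pbk, a mitotic serine/threonine kinase, was at 41.9 and 35.2 CPM in vehicle, 33.7 and 30.1 in polyU, 36.8 and 40.96 in PNPi+dG/rG, 21.5 and 25.1 in PNPi+dG/rG+polyU and 0.0532 and 0.123 in R848. Its R848 libraries held 1 and 4 reads, the largest fall of pooled reads among the 43 genes at 397-fold (95% interval 169.7 to 1224). Cdca8, which encodes borealin of the chromosomal passenger complex, had the smallest fall of the group. Its levels were 60.5 and 55.3 CPM in vehicle, 64.9 and 56.4 in polyU, 59.1 and 66.1 in PNPi+dG/rG, 44.7 and 51.4 in PNPi+dG/rG+polyU and 3.45 and 3.64 in R848, and 6.13% of vehicle remained with R848 (log2 -4.03 ± 0.093, limma adjusted p = 1.69e-15). Aurka and Aurkb, the Aurora kinases of the spindle pole and the centromere, were left at 3.44% and 0.929%, and Birc5 (survivin) at 1.03%.

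The 10 kinetochore and spindle checkpoint genes had a median of -6.43 and included the smallest fall of the 43 genes. Mad2l1, the checkpoint protein MAD2, kept the largest share of its transcript among the 43 genes. Its levels were 56.96 and 50.3 CPM in vehicle, 58.1 and 46.7 in polyU, 57.6 and 60.8 in PNPi+dG/rG, 46.6 and 49.9 in PNPi+dG/rG+polyU and 13.8 and 12.1 in R848. The R848 libraries were far below the rest but retained 24.1% of vehicle, a log2 difference of -2.05 ± 0.10 (limma adjusted p = 1.45e-10). Cenpf, a large kinetochore-associated protein, had the largest fall of the group, with 75.1 and 66.7 CPM in vehicle, 55.6 and 46.2 in polyU, 65.4 and 80.8 in PNPi+dG/rG, 30.7 and 31.1 in PNPi+dG/rG+polyU and 0.584 and 0.276 in R848. R848 left 11 and 9 reads of Cenpf, a 183-fold (95% interval 118 to 299) fall. The other 8 were left at between 0.694% (Ndc80, of the complex that grips microtubules) and 2.601% (Cenpa, the histone variant of centromeres).

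**Figure D2:**
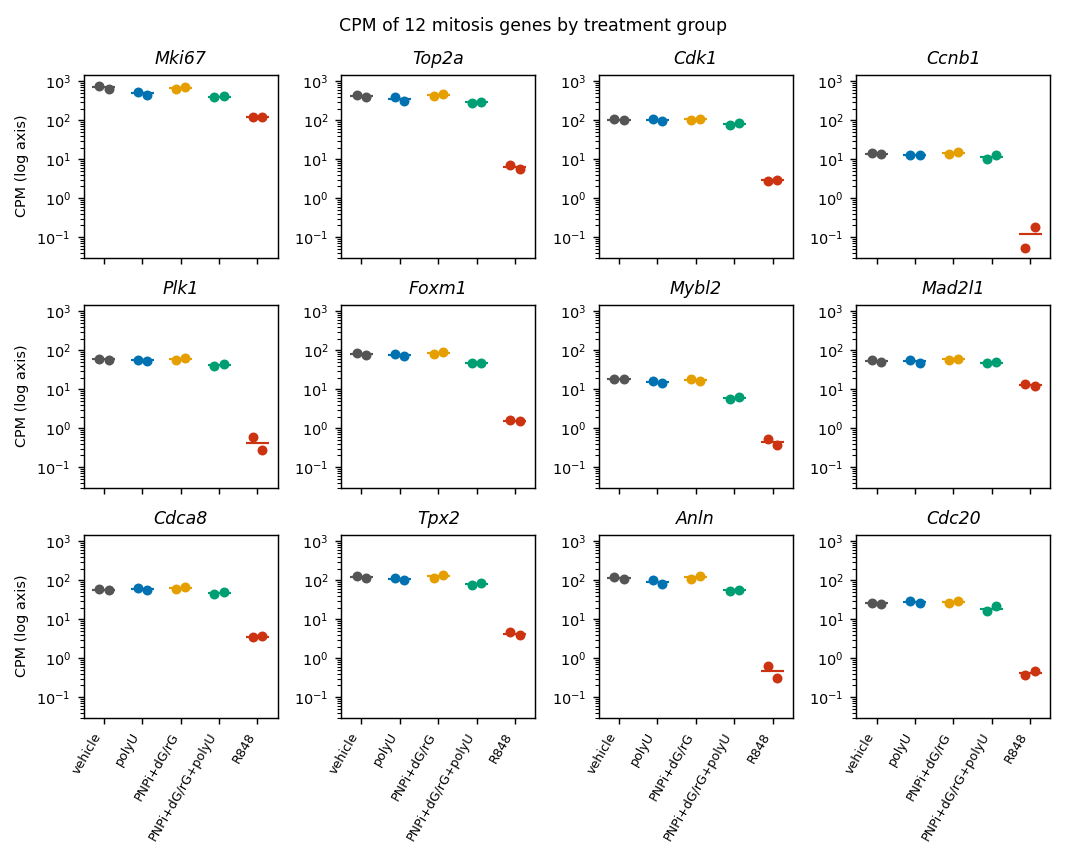
CPM on a log axis for 12 of the genes, with 1 point per library and a line at the mean of the 2 libraries of each of the 5 groups. R848 points lie lowest in every panel, at 123 and 121 CPM for Mki67 and 13.8 and 12.1 CPM for Mad2l1 but under 1 CPM for Ccnb1, Plk1, Mybl2, Anln and Cdc20.

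All 8 kinesins fell at least 8-fold with R848, with a median of -6.62. Kif2c, which depolymerizes microtubules at kinetochores, fell furthest on the log2 scale and was at 44.7 and 35.8 CPM in vehicle, 37.2 and 33.6 in polyU, 37.5 and 44.2 in PNPi+dG/rG, 25.98 and 28.8 in PNPi+dG/rG+polyU and 0.425 and 0.153 in R848. R848 left 8 and 5 reads of it (log2 -7.29 ± 0.47, limma adjusted p = 1.97e-05). Kif20a, a motor of the central spindle, fell least and was at 72.2 and 63.5 CPM in vehicle, 68.3 and 62.3 in polyU, 69.8 and 80.1 in PNPi+dG/rG, 43.1 and 49.5 in PNPi+dG/rG+polyU and 2.76 and 1.93 in R848, so that R848 left 3.46% of vehicle. Kif11, the motor that pushes the spindle poles apart, was left at 0.779% and Kif23, of the centralspindlin complex, at 1.02%.

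The 3 spindle assembly genes had a median of -5.91. Hmmr, a microtubule-binding protein of the spindle, was at 57.5 and 45.3 CPM in vehicle, 48.5 and 37.4 in polyU, 47.1 and 57.1 in PNPi+dG/rG, 31.4 and 32.7 in PNPi+dG/rG+polyU and 0.159 and 0.337 in R848. R848 left 3 and 11 reads, a 189-fold (95% interval 112 to 347) fall. Tpx2, which activates Aurora A on spindle microtubules, was at 130.02 and 118 CPM in vehicle, 115 and 102 in polyU, 117 and 135 in PNPi+dG/rG, 76.4 and 87.02 in PNPi+dG/rG+polyU and 4.78 and 3.86 in R848, and R848 left 3.48% of vehicle. The third, Nusap1, was left at 1.64%. Among the 3 cytokinesis genes Anln, the contractile ring scaffold anillin, was at 123 and 109.95 CPM in vehicle, 101 and 82.2 in polyU, 110.3 and 128 in PNPi+dG/rG, 54.6 and 55.9 in PNPi+dG/rG+polyU and 0.637 and 0.306 in R848. R848 left 0.405% of it, a log2 difference of -8.04 ± 0.35 (limma adjusted p = 2.99e-06). Ect2, the exchange factor that activates RhoA at the cleavage plane, fell least of these and was at 50.7 and 41.97 CPM in vehicle, 41.2 and 35.1 in polyU, 45.6 and 50.3 in PNPi+dG/rG, 25.8 and 28.8 in PNPi+dG/rG+polyU and 1.01 and 0.980 in R848. Prc1, which bundles midzone microtubules, was left at 1.24%.

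Of the 4 genes of the ubiquitin ligase and anaphase group, Cdc20, the activator of the anaphase-promoting complex (APC/C), was at 26.7 and 24.9 CPM in vehicle, 29.5 and 26.03 in polyU, 25.7 and 29.7 in PNPi+dG/rG, 16.4 and 21.5 in PNPi+dG/rG+polyU and 0.372 and 0.459 in R848. R848 left it at 1.61% of vehicle (log2 -5.96 ± 0.15, limma adjusted p = 4.10e-15). Pimreg was at 19.8 and 19.2 CPM in vehicle, 26.4 and 22.3 in polyU, 23.03 and 23.7 in PNPi+dG/rG, 13.4 and 17.7 in PNPi+dG/rG+polyU and 0.0532 and 0.123 in R848. It had 1 and 4 reads with R848 and fell 201-fold (95% interval 85.6 to 619.9) in pooled reads. Ube2c, the ubiquitin-conjugating enzyme of the APC/C, and Cdca3 were left at 0.773% and 1.41%.

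Mki67 was at 746 and 655 CPM in vehicle, 547 and 448 in polyU, 628 and 722 in PNPi+dG/rG, 387 and 421 in PNPi+dG/rG+polyU and 123 and 121 in R848. Its R848 libraries kept 17.4% of vehicle, a log2 difference of -2.52 ± 0.12 (limma adjusted p = 5.59e-07), and rested on 2318 and 3959 reads. Top2a was at 459 and 404 CPM in vehicle, 399 and 322 in polyU, 417 and 476 in PNPi+dG/rG, 287 and 300.2 in PNPi+dG/rG+polyU and 6.96 and 5.79 in R848, and 1.48% of vehicle remained with R848 (log2 -6.08 ± 0.14, limma adjusted p = 1.04e-08). R848 thus left a larger share of Mki67 than of Top2a, in both libraries, and the difference between their falls was not tested.

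The transcription factors of the program were lowered too. Foxm1 was at 84.7 and 77.7 CPM in vehicle, 80.97 and 72.6 in polyU, 81.9 and 90.6 in PNPi+dG/rG, 48.7 and 48.3 in PNPi+dG/rG+polyU and 1.59 and 1.5004 in R848. R848 left it at 1.91% of vehicle (log2 -5.71 ± 0.081, limma adjusted p = 8.53e-18). Mybl2 was at 18.5 and 18.3 CPM in vehicle, 16.7 and 14.5 in polyU, 18.6 and 16.7 in PNPi+dG/rG, 5.804 and 6.33 in PNPi+dG/rG+polyU and 0.531 and 0.368 in R848. Its R848 libraries held 10 and 12 reads, a log2 difference of -5.38 ± 0.17 (limma adjusted p = 8.07e-14).

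Several values moved with R848 beside these genes. Macrophage markers stayed abundant, with a summed level of 10 genes of 17026 to 17485 CPM in R848 against 21414 to 21969 CPM in vehicle, and 7 of the 10 were called lower and 2 higher. The summed level of 10 fibroblast markers was 152 to 162 CPM in R848, 4.74 to 5.98 CPM in PNPi+dG/rG+polyU, 1.15 to 1.604 CPM in PNPi+dG/rG, 1.34 to 1.48 CPM in polyU and 0.729 to 1.40 CPM in vehicle. Col1a1 (51.6 and 58.3 CPM), Col1a2 (40.9 and 40.2 CPM) and Pdgfrb (36.8 and 39.1 CPM) made up most of the R848 sum, 6 of the 7 tested fibroblast markers were called higher there (not Col1a2, limma adjusted p = 0.104), and the fibroblast markers Thy1 and Lum had at most 2 reads in an R848 library. Summed neutrophil progenitor markers were 23.0 to 25.2 CPM in R848 against 4.83 to 5.67 CPM in vehicle, mostly from S100a8 (21.03 and 23.4 CPM against 1.57 and 2.02). Of the 4 tested genes of that list S100a8 and Camp were called higher, while S100a9 and Ngp were called lower with at most 1 read in an R848 library, and Mpo, Elane, Prtn3, Ctsg, Ms4a3 and Ltf had 0 reads in both. The lymphocyte markers stayed under 1 CPM in every library, and endothelial markers, mostly Kdr and Vwf, were 64.7 to 70.0 CPM in R848 against 240 to 246 CPM in vehicle. Whether the R848 libraries came from a different mix of cells was not tested, nor was the part of these genes in the fall of the mitosis genes.

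**Figure D3:**
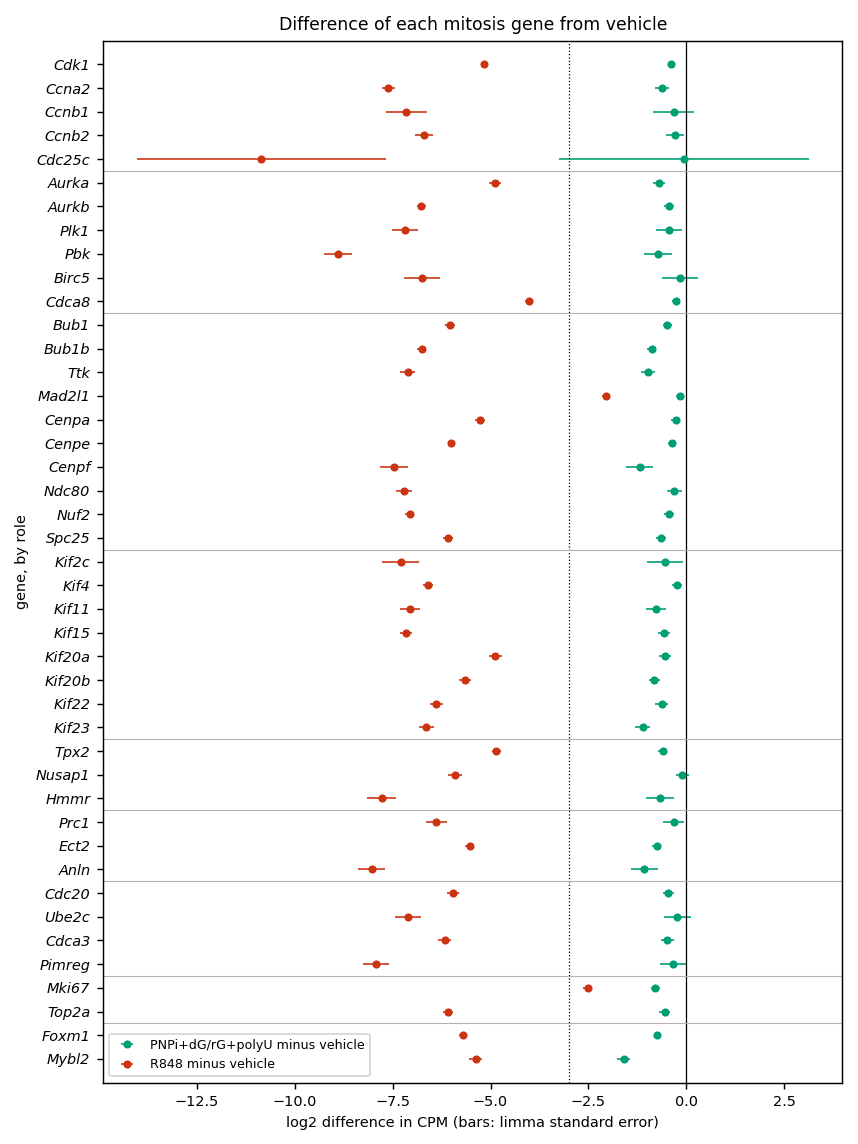
Log2 difference in CPM from vehicle for each of the 43 genes, grouped by role, for R848 (red) and PNPi+dG/rG+polyU (green), with bars of 1 limma standard error and a dotted line at 8-fold lower (-3). All red points but those of Mki67 and Mad2l1 lie left of the dotted line, and the green points lie between -1.60 for Mybl2 and -0.058 for Cdc25c, whose bar is wide because an R848 library had 0 reads.

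The combination of PNPi+dG/rG and polyU lowered the mitosis genes by far less. All 43 log2 differences from vehicle were negative, from -1.60 for Mybl2 to -0.058 for Cdc25c, with a median of -0.55 against -0.22 over all tested genes. At an adjusted p under 0.05 in limma, 27 of the 43 were called lower and 0 higher, and 0 were higher at an unadjusted p under 0.05 either, while 46.7% of tested genes were called lower and 22.2% higher. Centring moved the median of all tested genes from -0.22 to -0.010, and 14 of the 43 were then called lower and 0 higher. Of the 11978 tested genes, 3973 were then called lower and 3979 higher. The share of the 43 called lower was thus near that of all tested genes. In 40 of the 43 genes both PNPi+dG/rG+polyU libraries lay below both vehicle libraries, and the 3 that overlapped were Cdc25c, Birc5 and Nusap1.

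Mybl2 had the largest change, to 32.9% of vehicle (log2 -1.60 ± 0.17, limma adjusted p = 5.46e-07, and -1.39 with centring). Foxm1 fell to 59.7% (log2 -0.74 ± 0.081, limma adjusted p = 7.02e-07, and -0.53 with centring). For both transcription factors the PNPi+dG/rG+polyU libraries lay below all libraries of vehicle, polyU and PNPi+dG/rG and above those of R848.

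Calls were found in all 9 role groups, where 46.7% of all tested genes were called lower, and no role group was tested against that share. Of the master kinase group, 2 of 5 were called lower, Cdk1 at -0.39 ± 0.073 (limma adjusted p = 1.74e-04) and Ccna2 at -0.63 ± 0.17 (limma adjusted p = 0.0120). Of the mitotic kinases and passengers 3 of 6 were called, which were Aurka, Aurkb and Cdca8. Of the kinetochore and checkpoint genes 7 of 10 were called, led by Cenpf at -1.20, Ttk at -0.97 and Bub1b at -0.89, the last a checkpoint pseudokinase that binds Cdc20. The kinesins gave 6 of 8, led by Kif23 at -1.12, the cytokinesis genes 2 of 3 (Anln at -1.07 and Ect2 at -0.76), the ubiquitin ligase group 2 of 4 (Cdc20 and Cdca3), and spindle assembly 1 of 3 (Tpx2). Mki67 at -0.79 and Top2a at -0.55 were both called. With centring, Ccna2, Aurkb, Cdca8, Bub1, Cenpe, Cenpf, Nuf2, Kif11, Kif20a, Anln, Cdc20, Cdca3 and Top2a lost the call, and Cdc25c, Birc5, Mad2l1 and Nusap1 turned positive without being called.

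The 16 genes that did not pass included Plk1 (-0.45 ± 0.33, limma adjusted p = 0.280), Pbk (-0.72 ± 0.35, limma adjusted p = 0.110), Ccnb1 (-0.33 ± 0.52, limma adjusted p = 0.606) and Mad2l1 (-0.15 ± 0.10, limma adjusted p = 0.201). The fit holds 1 spread per gene over all 5 groups, so a gene with a handful of reads in R848 has a wide standard error in every comparison. When only vehicle and PNPi+dG/rG+polyU were fitted, 38 of the 43 were called lower. In that fit 5522 of the 11978 tested genes were called lower and 2564 higher.

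PolyU alone gave small differences in these genes. Log2 differences from vehicle ran from -0.50 for Mki67 to 0.74 for Cdc25c with a median of -0.079, against 0.016 over all tested genes. The limma test called 2 genes lower and 0 higher (0 higher also at an unadjusted p under 0.05), where 18.7% of tested genes were called lower and 20.6% higher. The 2 genes were Mki67 (-0.50 ± 0.12, limma adjusted p = 0.0140) and Cenpe, a kinetochore motor (-0.27 ± 0.093, limma adjusted p = 0.0360). Both polyU libraries of Mki67 lay below both vehicle libraries, and the same held for Cenpe, at 104 and 92.2 CPM against 124 and 112 CPM. Without vehicle replicate 1 neither was called and without polyU replicate 2 the count was 1, while it was 4 without polyU replicate 1 or either R848 replicate and 3 without vehicle replicate 2. The median of the 43 genes was 0.027 without polyU replicate 2. In all, 9 genes were called lower and 2 higher when vehicle and polyU were fitted alone. In that fit 2144 of the 11978 tested genes were called lower and 2182 higher.

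PNPi+dG/rG without polyU changed none of the 43 genes by the test. Log2 differences from vehicle ran from -0.071 for Kif23 to 0.33 for Cdc25c with a median of 0.056, against 0.018 over all tested genes. In limma 0 were called lower and 0 higher, and 0 in either direction at an unadjusted p under 0.05, where 0.392% of tested genes were called lower and 0.409% higher. The lowest limma adjusted p was 0.760, for Mad2l1 at 0.14 ± 0.10. These were the deepest libraries, with 38392604 and 37402321 reads on genes.

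Set against polyU alone, the combination gave 22 of the 43 genes called lower and 0 higher in limma (0 higher at an unadjusted p under 0.05). Of tested genes 47.5% were called lower, a share near that of the 43, and 15.8% higher. The median was -0.43, against -0.24 over all tested genes. Foxm1 (-0.66 ± 0.081, limma adjusted p = 3.73e-06), Mybl2 (-1.36 ± 0.17, limma adjusted p = 4.86e-06) and Bub1b (-0.82 ± 0.11, limma adjusted p = 8.06e-06) had the lowest adjusted p-values. With centring 6 of the 43 were called lower, which were Bub1b, Ttk, Kif22, Kif23, Foxm1 and Mybl2, and Ccnb1, Mad2l1, Cenpe, Ndc80, Kif4 and Nusap1 turned positive without being called. Of the 11978 tested genes, 3035 were then called lower and 3604 higher, so the share of the 43 called lower was below that of all tested genes. In this comparison without centring, some libraries mattered for the count of the 43. The count was 12 without polyU replicate 1, 13 without PNPi+dG/rG+polyU replicate 1 and 34 without either R848 replicate.

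The interaction, which is the effect of PNPi+dG/rG in the presence of polyU minus its effect without polyU, was negative for all 43 genes, with a median of -0.48 against -0.27 over all tested genes. It passed in limma for 19 genes, all lower, and for 0 higher (0 at an unadjusted p under 0.05), where it passed lower for 38.9% and higher for 11.8% of tested genes. The largest called value was that of Mybl2 at -1.30 ± 0.24 (limma adjusted p = 3.99e-04), followed by Kif23 at -0.91 and Ttk at -0.85. The lowest limma adjusted p was that of Foxm1, 6.88e-05, at -0.75 ± 0.11. With centring 3 genes still passed, Mybl2 at -1.01, Bub1b at -0.51 and Foxm1 at -0.46, while Ccnb1, Mad2l1, Cenpe, Kif4, Nusap1 and Mki67 turned positive without being called. Of the 11978 tested genes, 2037 passed lower and 2888 higher after centring. The count was 5 without polyU replicate 1, PNPi+dG/rG replicate 2 or PNPi+dG/rG+polyU replicate 1, 6 without vehicle replicate 2 and 30 without either R848 replicate.

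R848 and the combination differed for every gene. All 43 were called lower in R848 than in PNPi+dG/rG+polyU in limma and 0 higher (0 at an unadjusted p under 0.05), where 53.9% of tested genes were called lower and 16.9% higher. The median was -5.87, against -0.31 over all tested genes, and 41 of the 43 were at least 8-fold lower against 2.55% of tested genes. Mki67 (-1.73 ± 0.12, limma adjusted p = 8.82e-06) and Mad2l1 (-1.90 ± 0.10, limma adjusted p = 9.75e-10) were again the 2 outside it. The count called lower was 42 when any 1 library of polyU, PNPi+dG/rG or PNPi+dG/rG+polyU was left out, the call of Cdc25c being lost. The 2 treatments are different agents at their own doses, and no dose series was measured here.

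Other genes of the cycle were read from lists that hold none of the 43. Of 49 tested genes among 50 other mitosis genes, R848 lowered 48 and raised 0 in limma, with a median of -5.69 and 40 at least 8-fold lower. Of all tested genes 62.9% were called lower, 19.2% higher and 6.22% at least 8-fold lower. Ska1, a kinetochore protein, had 10.9 and 8.15 CPM in vehicle and 0 reads in both R848 libraries, which makes it at least 164-fold lower when 3 reads over the group are taken as the limit. Knl1, the kinetochore scaffold, went from 62.96 and 50.2 CPM to 6 and 3 reads. Pttg1 encodes securin, which holds separase back until anaphase, and was at 11.4 and 12.5 CPM in vehicle, 24.5 and 24.8 in polyU, 31.6 and 32.7 in PNPi+dG/rG+polyU and 11.4 and 14.6 in R848. Securin did not pass with R848 (log2 0.11, limma adjusted p = 0.400), although it was called higher there after centring (0.70), and rose with the combination (log2 1.43 ± 0.12, limma adjusted p = 3.04e-08) and with polyU alone (log2 1.04 ± 0.12, limma adjusted p = 5.15e-06). Trip13, an ATPase that acts on MAD2, had the next smallest fall with R848, -0.82 (limma adjusted p = 4.30e-04), which did not pass after centring (-0.23, limma adjusted p = 0.221). The combination lowered 28 of the 49 and raised 1, which was Pttg1, with a median of -0.52, and 17 were lower and 2 higher after centring. Of tested genes 46.7% were lower and 22.2% higher with the combination, or 3973 and 3979 of 11978 after centring.

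**Figure D4:**
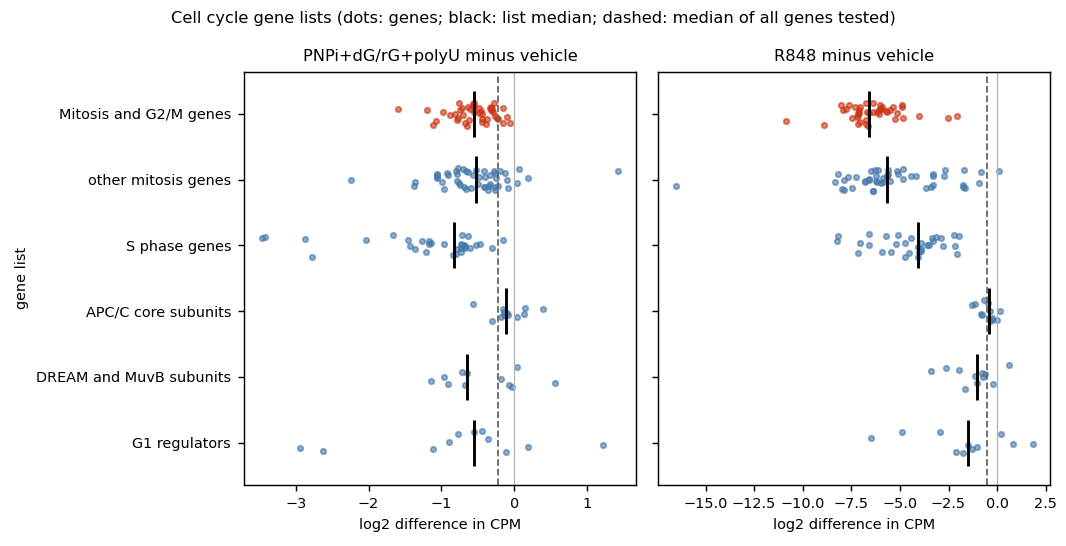
Log2 difference in CPM from vehicle for each tested gene (dots) of the 43 mitosis and G2/M genes (red) and 5 other cell cycle lists (blue), with PNPi+dG/rG+polyU on the left and R848 on the right, black bars at list medians and a dashed line at the median of all tested genes. With R848 the medians run from -6.60 for the mitosis and G2/M genes and -5.69 for the other mitosis genes to -4.07 for S phase genes and -0.43 for APC/C core subunits with Fzr1, while with PNPi+dG/rG+polyU the S phase median, -0.82, is the lowest of the 6.

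The order of the lists was not the same under both treatments. All 32 S phase genes were called lower with R848, with a median of -4.07 and 26 at least 8-fold lower. Of all tested genes 62.9% were called lower, 19.2% higher and 6.22% at least 8-fold lower. With the combination 30 of the 32 were called lower and 0 higher, where 46.7% of tested genes were called lower and 22.2% higher. The median was -0.82 against -0.55 for the mitosis genes. After centring 29 were called lower, where 3973 of 11978 tested genes were called lower and 3979 higher. Dtl, a substrate receptor of the ligase that degrades Cdt1, went from 41.2 and 35.2 CPM in vehicle to 4.11 and 2.88 CPM in PNPi+dG/rG+polyU and 1 and 10 reads in R848, and E2f2 from 60.5 and 60.01 CPM to 6.58 and 4.78 CPM and 3 and 9 reads. The smallest falls of this list with R848 were those of Rfc3, a clamp loader subunit, at -1.95 and Pcna, the sliding clamp, at -2.08. The difference between the lists was not tested.

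The lists of APC/C core and of DREAM and MuvB subunits had medians with R848 nearer to that of all tested genes than the mitosis genes did. The APC/C list also holds Fzr1, which like Cdc20 is an activator, and the DREAM list holds Rb1, a pocket protein outside DREAM. Of the 12 genes of the APC/C list, R848 lowered 10 and raised 0, with a median of -0.43 near that of all tested genes. After centring 4 were called lower and 5 higher. With R848, 62.9% of tested genes were called lower and 19.2% higher, or 4150 and 5146 of 11978 after centring. Cdc23 at -1.27 and Anapc5 at -1.13 had the largest falls of this list, and Anapc10 (0.17, limma adjusted p = 0.131) and Anapc2 (0.014, limma adjusted p = 0.813) did not pass, although both were called higher after centring (0.77 and 0.61). With the combination 5 were lower and 2 higher, or 1 and 4 after centring. Of tested genes 46.7% were lower and 22.2% higher with the combination, or 3973 and 3979 of 11978 after centring. Of the 11 genes of the DREAM and MuvB list, 10 were lower and 1 higher with R848, with a median of -1.03, and 6 and 2 after centring. The pocket protein Rbl1 (-3.43) and the MuvB subunit Lin9 (-2.66) had the largest falls. E2f5 rose (0.61, limma adjusted p = 2.34e-05), and E2f4, the E2F of the repressor complex, was at -0.23 (limma adjusted p = 0.00138), but was called higher after centring (0.36). With the combination 7 of these 11 were lower and 1 higher, with a median of -0.65.

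Of 11 G1 regulators, R848 lowered 8 and raised 2, with a median of -1.52, and the combination lowered 8 and raised 1, with a median of -0.55. Of all tested genes, 62.9% were called lower and 19.2% higher with R848, and 46.7% and 22.2% with the combination. After centring the counts of G1 regulators were 8 and 3 with R848 and 7 and 2 with the combination. Ccnd2, cyclin D2, was then called higher in both (0.78 and 0.40), and Cdkn1b was no longer called lower with the combination (-0.14). Centred counts over the 11978 tested genes were 4150 lower and 5146 higher with R848, and 3973 and 3979 with the combination. Ccnd1, cyclin D1, was at 960.2 and 954 CPM in vehicle, 784 and 695 in polyU, 931 and 892 in PNPi+dG/rG, 132 and 116 in PNPi+dG/rG+polyU and 10.4 and 10.7 in R848. It fell with the combination (log2 -2.95 ± 0.063, limma adjusted p = 1.42e-14) and was lower still with R848 (log2 -6.51 ± 0.063, limma adjusted p = 2.73e-18). Myc was at 114 and 117 CPM in vehicle, 83.4 and 71.3 in polyU, 18.3 and 18.9 in PNPi+dG/rG+polyU and 14.9 and 14.8 in R848, which is a log2 difference of -2.63 with the combination and -2.96 with R848. Cdkn1a, the CDK inhibitor p21, rose from 244 and 247 CPM in vehicle to 324 and 307 in polyU, 589 and 553 in PNPi+dG/rG+polyU and 826 and 909 in R848 (log2 1.82 ± 0.049, limma adjusted p = 1.17e-14).

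Cdkn1b, p27, rose with R848 (log2 0.82, limma adjusted p = 2.40e-07) and fell with the combination (log2 -0.35, limma adjusted p = 0.00165), while Cdkn2c, p18, fell from 71.1 and 71.4 CPM in vehicle to 41.5 and 41.7 in PNPi+dG/rG+polyU and 2.44 and 2.42 in R848. The other G1 regulators that fell with R848 were Ccnd3 (-1.31), Cdk2 (-1.74), Cdk4 (-1.52), Cdk6 (-1.05) and Cdkn2d (-2.10), all of them with the combination too except Cdk6 (-0.11, limma adjusted p = 0.0593). Csf1r, the M-CSF receptor, was at 2139.7 and 2206 CPM in vehicle, 1987 and 1924 in polyU, 1455 and 1416 in PNPi+dG/rG+polyU and 1654 and 1727 in R848. With R848 it was called lower (log2 -0.36, limma adjusted p = 1.16e-07) but called higher after centring (0.23), so its direction there depends on the scaling.

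Among the 745 tested genes that were at least 8-fold lower with R848 than with vehicle, 41 were the mitosis and G2/M genes, 40 the other mitosis genes and 26 the S phase genes. Together these 3 lists made 107 of the 745, or 14.4%. Of the 11978 tested genes the lists held 43, 49 and 32. With polyU alone, where 18.7% of tested genes were called lower and 20.6% higher, 6 of 49 other mitosis genes were called lower and 1 higher. Of 32 S phase genes 8 were called lower and 0 higher, and of 11 G1 regulators 4 lower and 1 higher. The APC/C list had 2 of 12 genes lower and 2 higher, and the DREAM and MuvB list 4 of 11 lower and 0 higher. The shares called lower lay on both sides of that background, and no list was tested.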

How the data were processed

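Single reads of 50 bp from a HiSeq 3000 (bcl2fastq 2.19.1.403) were aligned by the authors to GRCm38 with STAR 2.27a and counted per gene with Ensembl release 97, and the authors deposited CPM with an offset of 0.0001, made in Partek Flow. Depth, recovered from the step between low CPM values (100% whole to within 0.02 reads), was 14128125 to 38392604 reads on genes, and 3 reads are 0.0781 to 0.212 CPM. CPM carries no correction for composition.

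Log2 of the deposited values was fitted with limma 3.58.1 (R 4.3.3, statmod 1.5.0), using eBayes with trend and robust and tested on simulated data, over all 10 libraries, without a replicate block, in 7 comparisons. The test covered genes that reached 1 CPM in 2 or more libraries, with Benjamini-Hochberg adjustment within a comparison. A call needs an adjusted p under 0.05, and a strong call also a log2 difference of -3 or less. Pooled-read intervals used scipy 1.17.1. Alternatives were other pseudocounts, filters, centring, a replicate block, fits of fewer groups and leaving out each library.

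The genes, lists and tests were chosen with earlier results of these data known. Values in every library are given for Mki67, Top2a, Cdk1, Ccnb1, Plk1, Foxm1, Mybl2 and the largest and smallest fall with R848 of each role group of 3 or more, among genes of at least 5 CPM in vehicle. Of the other lists the 2 largest and 2 smallest falls, Csf1r and called G1 regulators are named, and any gene outside these was named after its values were seen.

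How reads shared between genes were counted, and whether by strand, is not given in the sources used here. Of 50-base stretches of exon, Ccnb1 shared 23.4%, Mybl2 19.3% and Cdc20 10.4% with pseudogenes, which were at 0.08 CPM or less, and Ccna2, Cdc20, Kif4, Kif20a, Cdca8, Nusap1 and Prc1 overlap an expressed gene on the opposite strand, so their values are uncertain to that extent.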

Additional observations from a re-analysis of the deposited data

Results flagged for a closer look

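For 8 of the genes whose values are given in every library, the effect of PNPi+dG/rG differed between cells with and without polyU, by the interaction term in limma. The effect with polyU minus that without it was -0.40 for Cdk1 (limma adjusted p = 0.00440), -0.45 for Cdca8, -0.64 for Kif20a, -0.42 for Tpx2, -0.53 for Ect2, -0.66 for Cdc20, -0.75 for Foxm1 (limma adjusted p = 6.88e-05) and -1.30 for Mybl2 (limma adjusted p = 3.99e-04), all on the log2 scale. In this term 19 of all 43 genes were called lower, and so were 38.9% of tested genes. The median over all tested genes was -0.27 in the same direction, and of the 8 only Foxm1 and Mybl2 passed after each library was centred on its median. Groups of 2 libraries are too small to look for a library far from the others.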

How the results depend on the processing

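Leaving out each library in turn gave 42 to 43 genes lower with R848 than with vehicle (median -6.65 to -6.22; 40 to 41 at least 8-fold lower), 42 to 43 lower than with the combination (-5.99 to -5.69; 40 to 41), 18 (without vehicle replicate 1 or PNPi+dG/rG+polyU replicate 1) to 38 (without either R848 replicate) lower with the combination than with vehicle (median -0.64 to -0.46), 12 (without polyU replicate 1) to 34 (without either R848 replicate) lower than with polyU (-0.54 to -0.35), and 5 (without PNPi+dG/rG replicate 2, polyU replicate 1 or PNPi+dG/rG+polyU replicate 1) to 30 (without either R848 replicate) in the interaction (-0.60 to -0.39), where leaving out vehicle replicate 2 gave 6. For polyU against vehicle the counts ran from 0 (without vehicle replicate 1) to 4 lower and 0 to 1 higher (median -0.17 to 0.027), and for PNPi+dG/rG they stayed at 0 and 0 (-0.044 to 0.15). Cdc25c lost its R848 call without either vehicle replicate, and turned positive for the combination (range -0.22 to 0.10, with 0.10 without vehicle replicate 1 and 0.085 without PNPi+dG/rG+polyU replicate 2). Its call against the combination was lost without any 1 library of polyU, PNPi+dG/rG or PNPi+dG/rG+polyU.

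Centring libraries on their median gave 14 calls for the combination against vehicle (median -0.34), 6 against polyU (-0.18) and 3 in the interaction (-0.19), medians of -6.01 for R848 against vehicle and -5.49 against the combination, and 0.15 for Cdc25c and 0.060 for Mad2l1 in the combination. It moved all tested genes with R848 from 7535 lower and 2300 higher to 4150 and 5146, with the combination from 5594 and 2660 to 3973 and 3979, against polyU from 5685 and 1897 to 3035 and 3604, in the interaction from 4654 and 1415 to 2037 and 2888, for R848 against the combination from 6451 and 2022 to 3397 and 4486, for polyU from 2242 and 2467 to 2732 and 2063, and for PNPi+dG/rG from 47 and 49 to 96 and 36. The latter became 27 lower without a filter, 80 lower and 31 higher with only the groups compared, 75 lower with the crossed block, and 2 and 11 without trend and robust estimates. Of the other lists with the combination, centring gave 17 lower and 2 higher other mitosis genes.

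A pseudocount of 0.1 CPM gave medians of -6.11 and -5.55 for R848 against vehicle and the combination. A pseudocount of 1 CPM gave -4.93 and -4.48, with 34 calls for the combination against polyU, 29 in the interaction, and 5 lower and 1 higher with polyU. Fitting only the groups compared gave 37, 31, and 9 and 2 for the same, with the low R848 values left out of the shared spread. Over the 11978 tested genes these fits called 5544 lower and 1888 higher, 4850 and 1399, and 2144 and 2182. Without trend and robust estimates the interaction had 8 calls and polyU 1, and polyU had 1 without a filter.

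Libraries with the same replicate number did not deviate together (correlations -0.29 to 0.11 over 8459 genes). A replicate block gave 2, 0, 28, 43, 43, 22 and 17 genes lower in the 7 comparisons, in the order polyU, PNPi+dG/rG, combination, R848, R848 against combination, combination against polyU and interaction. A block with the PNPi+dG/rG numbers crossed, chosen after seeing the data, gave 5, 0, 27, 43, 43, 23 and 21. The planned edgeR test on recovered reads was not run.

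With 2 libraries a group, calls near the threshold rest on the spread shared over groups, and R848 folds of genes with few reads are limited by counting error.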
